A study of Mus musculus with 4 samples.

Results

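The cells described here were chosen by a gate on UMIs (unique molecular identifiers, 1 per captured transcript molecule) that was meant to hold thymic pericytes. A cell was selected on at least 1 Pdgfrb UMI, at least 3 UMIs of Kcnj8, Vtn and Abcc9 in all, at most 1 Myh11 UMI and 0 UMIs of each of Pdgfra, Epcam, Pecam1 and Ptprc. The gate took 104 of 10245 cells with over 1000 detected genes and under 20% mitochondrial UMIs. Only part of the 104 cells carried the other pericyte transcripts, and the cells are therefore called gated cells below. They came from 4 libraries of CD45-negative thymic stroma of 6-month-old C57BL/6 mice, 2 from wild-type mice (WT, named mock in the labels) and 2 from mice with a homozygous LacZ genotype at Foxn1 (Z/Z), a hypomorphic allele of a transcription factor of thymic epithelium. All mice were untreated, thymi of several mice were digested together, and CD45-positive cells were depleted and sorted out. The sex is given as female in one label and as male in another. Foxn1 acts in epithelium, so the gated cells are not the cells in which the allele is known to act.

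Pericytes are mural cells that lie on capillaries and venules inside the basement membrane, next to the endothelium, and Pdgfrb is the receptor by which endothelial PDGF-B recruits them. Kcnj8 and Abcc9 encode the Kir6.1 pore and the SUR2 regulatory subunit of an ATP-sensitive potassium channel that lowers vascular tone, and Vtn encodes vitronectin, an adhesion protein. Smooth muscle cells of larger vessels share Rgs5, Notch3 and Pdgfrb with pericytes and differ from them in abundant contractile transcripts such as Myh11 and Acta2. In the thymus, pericytes surround the vessels by which progenitors enter and mature thymocytes leave.

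The 3 genes whose UMIs chose the cells are shown by the sequence before their start sites, since every value below depends on their detection. Kcnj8 and Abcc9 lie side by side on the minus strand of chromosome 6, at 142564837 to 142571614 and at 142587862 to 142702315, with 16247 bases between them, and Vtn lies on the plus strand of chromosome 11 at 78499091 to 78502324 (GENCODE vM21, GRCm38). The RefSeq windows (GRCm38.p6) run from 250 to 51 bases before the RefSeq start sites, in the direction of transcription. These are 142571614 for Kcnj8, 142702274 for Abcc9 and 78499120 for Vtn, and the last 2 differ from the GENCODE ends given above. They cover chr6:142571665-142571864 on the minus strand for Kcnj8, chr6:142702325-142702524 on the minus strand for Abcc9 and chr11:78498870-78499069 on the plus strand for Vtn. Capitals mark TGGGAA on either strand, the core letters of the sites bound by RBPJ, which acts downstream of Notch receptors.
Kcnj8: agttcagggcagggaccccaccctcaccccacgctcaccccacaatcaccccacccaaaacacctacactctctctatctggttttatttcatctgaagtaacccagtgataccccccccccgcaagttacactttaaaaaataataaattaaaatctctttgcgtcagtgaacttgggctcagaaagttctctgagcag
Abcc9: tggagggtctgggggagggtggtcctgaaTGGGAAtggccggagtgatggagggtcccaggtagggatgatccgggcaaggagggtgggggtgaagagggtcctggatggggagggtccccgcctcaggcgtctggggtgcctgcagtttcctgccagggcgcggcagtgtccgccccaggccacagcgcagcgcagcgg
Vtn: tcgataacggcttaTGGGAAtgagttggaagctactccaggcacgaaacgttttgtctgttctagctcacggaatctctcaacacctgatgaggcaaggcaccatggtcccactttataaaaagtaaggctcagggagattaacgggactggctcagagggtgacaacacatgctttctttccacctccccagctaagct
The letters TGGGAA occurred once in the windows of Abcc9 and Vtn and were not found in that of Kcnj8, and 17.9% of 32851 windows of this length held them. No window of the 3 held a CArG box, the site of serum response factor, which 1.16% of all windows held. These matches describe the letters and nothing about binding.

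The gated cells were few and unevenly spread over the libraries. The WT libraries gave 8 (WT 1) and 2 (WT 2) cells and the Z/Z libraries 74 and 20, and their summed UMIs were 69441, 18703, 410731 and 93737. The median depth of a gated cell was 9112 and 9352 UMIs in the WT libraries and 5152 and 4116 in the Z/Z libraries. No gated cell had a barcode that was also called in another library, although WT 1 and WT 2 shared 202 called barcodes and Z/Z 1 and Z/Z 2 shared 249. Libraries of different genotypes shared 0 to 6. Of cells within the limits on genes and mitochondrial UMIs, 66 of 1517 in WT 1 and 162 of 474 in WT 2 had a shared barcode. The numbers were 212 of 4636 in Z/Z 1 and 76 of 3618 in Z/Z 2. The source of the shared barcodes was not tested, and the tests below take the libraries of a genotype as separate replicates. The median mitochondrial share was between 1.80% and 1.94% in the 4 libraries, and 2 of the gated cells were among the 3.9% with the highest doublet scores of their library.

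Among the gated cells, 2 expression patterns were seen, which were set apart by Rgs5 and Dcn. Rgs5, a regulator of G-protein signalling that marks mural cells, had a UMI in 58 of the 104 cells (55.8%, exact Clopper-Pearson interval 45.7% to 65.5%). It was found in 6 of 8 cells of WT 1, 0 of 2 of WT 2, 38 of 74 of Z/Z 1 and 14 of 20 of Z/Z 2. Dcn, which encodes the fibroblast proteoglycan decorin, had at least 20 UMIs in 36 cells, and 34 of these were cells without an Rgs5 UMI. Only 2 cells had both Rgs5 and 20 or more Dcn UMIs, 56 had Rgs5 with less Dcn, and 12 had neither. The median Dcn count was 0 in cells with Rgs5 (range 0 to 41) and 61 in cells without it (range 0 to 207). The 2 cells of WT 2 held 76 and 207 Dcn UMIs and no Rgs5 UMI. This division was made after the values were seen, and it is a description with no test.

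**Figure D1:**
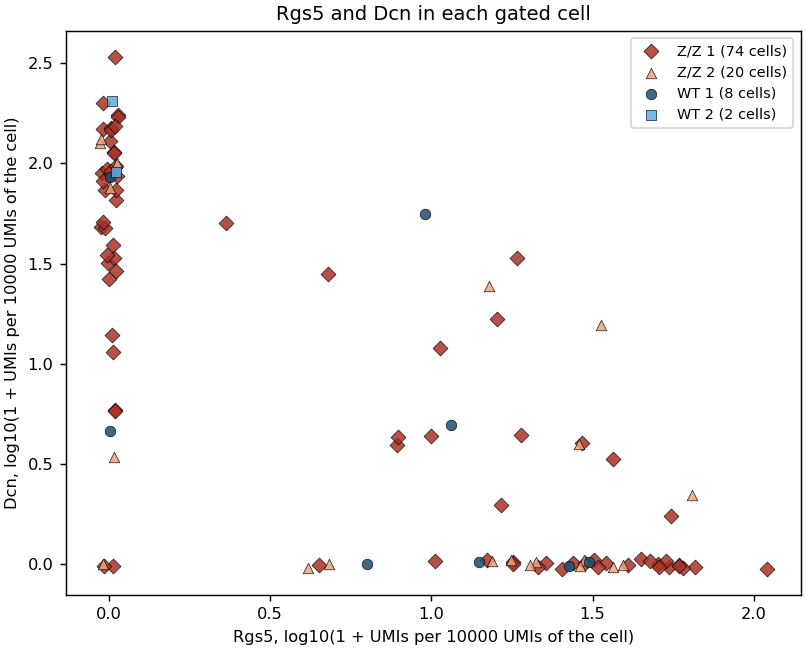
Each point is 1 of the 104 gated cells, with Rgs5 on the x axis and Dcn on the y axis, both as log10 of 1 plus UMIs per 10000 UMIs of the cell, and colour and shape give the library (a small random shift separates points). The 58 cells with Rgs5 spread along the bottom and the 46 without it stand along the left side, most of them with high Dcn, including both cells of WT 2.

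The cells without Rgs5 were the deeper ones, with a median of 6709 UMIs against 4116 in cells with it. At an equal depth of 2000 UMIs per cell, reached by random thinning (1 cell each of Z/Z 1 and Z/Z 2 was too shallow), Rgs5 was found in 75.0% and 0% of the gated cells of WT 1 and WT 2 and in 50.7% and 57.9% of those of Z/Z 1 and Z/Z 2. Fibroblasts, which should lack the gene, had an Rgs5 UMI in at most 1.19% after thinning and at most 2.97% before it, at median depths of 11603 to 14381 UMIs. Epithelial cells had one in 15.3%, 19.0%, 6.34% and 6.83% after thinning, and in 35.1%, 25.4%, 12.8% and 15.1% at median depths of 20524, 19178, 8937 and 9164 UMIs. The epithelial sums held 291, 126, 105 and 89.8 CPM of Rgs5 where empty droplets held 87.6, 44.1, 110 and 119 CPM, so in the WT libraries the epithelial level was above that of free RNA. Counting intervals given here cover counting error only.

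The pericyte markers that the gate did not use were read from the UMIs summed over the gated cells of a library, in counts per 1000000 UMIs of that sum (CPM). Sets of 4 values are in the order WT 1, WT 2, Z/Z 1, Z/Z 2, and sets of 3, for cells with Rgs5, leave out WT 2, which had none. Rgs5 had 1318, 0, 1334 and 1766 CPM. Notch3, the Notch receptor of mural cells, had 364, 59.7, 302 and 729 CPM. In both genes WT 2 stood lowest and Z/Z 2 highest. Of 8 such markers (Rgs5, Cspg4, Notch3, Mcam, Higd1b, Cox4i2, Ndufa4l2 and Des), 68 of the 104 cells carried at least 3 and 3 cells carried none. Cspg4 and Mcam, which encode the NG2 proteoglycan and CD146, were found in 19 and 15 cells. Steap4, a metalloreductase found in pericytes and in fibroblasts, was found in 81 cells and reached 18 UMIs in one.

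Within the gated cells the markers followed Rgs5 to different degrees. Cox4i2, a lung and vascular isoform of a cytochrome oxidase subunit, was found in 32 of 58 cells with Rgs5 and 5 of 46 without it. Higd1b, a mitochondrial inner membrane protein of mural cells, was found in 19 and 6 cells. Heyl, a target of Notch signalling, was found in 16 cells with Rgs5 and in 1 without. Des, the intermediate filament desmin, did not follow Rgs5 and was found in 43 of 58 and 36 of 46 cells. Ndufa4l2, a mitochondrial protein, was likewise found in both kinds, in 40 and 27 cells. The fibroblast transcripts Lum and Dpt, which encode small matrix proteins, were found in 30 and 17 of the cells without Rgs5 and in 5 and 3 of the cells with it. Col14a1, another fibroblast collagen gene, was rare in both, with 2 and 3 cells.

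**Figure D2:**
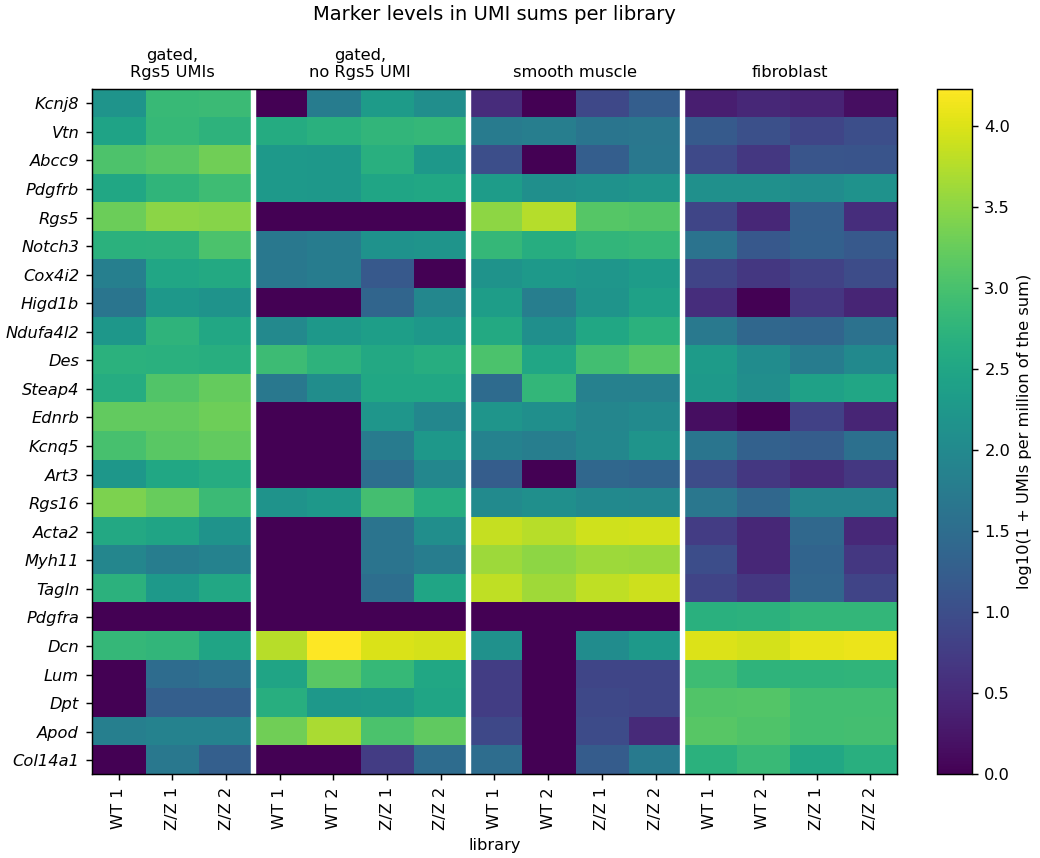
Rows are genes and columns are libraries, grouped into gated cells with Rgs5 UMIs, gated cells without an Rgs5 UMI, smooth muscle cells and fibroblasts, and colour gives log10 of 1 plus the CPM of each library's sum. Cells with Rgs5 shared Notch3 and Rgs5 with smooth muscle but had little Acta2 and Tagln, while Dcn was bright in the gated cells without Rgs5 and in fibroblasts.

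Set beside other cells of the same libraries, the gated cells with Rgs5 resembled smooth muscle in some transcripts and not in others. Smooth muscle cells were those with at least 3 UMIs each of Myh11 and Acta2 and 0 of Pdgfra, Epcam, Pecam1 and Ptprc, and fibroblasts those with at least 2 Pdgfra UMIs, 0 of Epcam, Pecam1 and Ptprc and at most 1 UMI of Kcnj8, Vtn and Abcc9. These definitions fix the level of the genes they name. Acta2, the smooth muscle actin, had 351, 292 and 147 CPM in gated cells with Rgs5 of WT 1, Z/Z 1 and Z/Z 2, and between 5935 and 8667 CPM in smooth muscle. Tagln, an actin-binding protein of contractile cells, had 526, 182 and 348 CPM against 4186 to 8135. Each of the 2 genes was found in 12 of the 58 cells with Rgs5. In each library 1 cell held most of the UMIs of both. It held 13 of 16, 31 of 48 and 8 of 8 for Acta2, and 22 of 24, 24 of 30 and 17 of 19 for Tagln. Of the smooth muscle markers, Actg2 and Pln had no UMI in any gated cell. Steap4 went the other way, with 416, 1186 and 1685 CPM in gated cells with Rgs5 against 28.7, 72.2 and 71.6 CPM in smooth muscle of the same libraries, although the 2 smooth muscle cells of WT 2 had 625 CPM. Of the pericyte markers that the gate did not use, Cspg4, Mcam and Des were higher in smooth muscle of these libraries. Cspg4 had 182, 168 and 169 CPM there against 87.7, 79.1 and 55.0 in gated cells with Rgs5. Mcam had 179, 157 and 155 against 65.8, 48.6 and 18.3 CPM. Des had 1065, 882 and 1276 against 504, 480 and 440 CPM. Rgs5, Notch3, Higd1b, Cox4i2 and Ndufa4l2 kept no order over the libraries.

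The gated cells without Rgs5 stood near fibroblasts in Dcn. Its level was 5840, 16887, 9775 and 8893 CPM, where fibroblasts had 10300, 9005, 11737 and 12732 CPM. The ranges of the libraries overlapped. Dpt was lower than in fibroblasts, with 442, 179, 204 and 301 CPM against 1219, 1238, 893 and 881. Col14a1 was lower too, with 0, 0, 4.64 and 30.1 CPM against 506, 739, 345 and 460. Lum was mixed, with 294, 1372, 672 and 332 CPM against 830, 554, 561 and 574. The 12 listed fibroblast markers summed to 11975, 22497, 14920 and 13837 CPM against 26050, 26265, 28582 and 28309 in fibroblasts. Vtn was at similar levels in gated cells with and without Rgs5, from 285 to 669 and from 393 to 663 CPM, whereas Kcnj8 had 153, 693 and 751 CPM with Rgs5 and 0, 59.7, 209 and 121 CPM without. Of the UMIs of the 3 gate genes, Vtn supplied 50.8% in cells without Rgs5 and 22.0% in cells with it, and Abcc9 supplied 34.1% and 54.8%. These 3 genes chose the cells, and their values are given as a description.

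Markers of other cells were low in the gated cells apart from fibroblast and smooth muscle genes, but some were present. The gate itself fixed Epcam, Pecam1, Ptprc and Pdgfra at 0. Of endothelial genes it did not use, Egfl7 had 0 UMIs, Cdh5 had 1, Cldn5 had 2 and Kdr had 3 UMIs over all 104 cells. Eng, the highest of the listed endothelial markers, went the other way, with 227, 239, 184 and 103 CPM. The summed level of 12 endothelial markers was 379 to 433 CPM, of 16 thymocyte markers 55.2 to 376 CPM and of 14 epithelial markers 174 to 718 CPM. The endothelial sum was 140 to 171 CPM in fibroblasts, 0 to 223 CPM in smooth muscle and 236, 145, 1163 and 1379 CPM in empty droplets. The listed Schwann markers summed to 348, 418, 368 and 125 CPM, with Gpm6b at 318, 418, 339 and 114 CPM. The highest epithelial value, in Z/Z 2, included 23 Cdh1 UMIs that came from 1 cell. The 12 fibroblast markers summed to 4530, 22497, 9095 and 5686 CPM, and WT 2 stood apart from the other libraries. Free RNA, estimated from epithelial, endothelial and thymocyte genes against empty droplets, made up at most 8.01%, 6.50%, 8.34% and 12.7% of the UMIs of the gated cells.

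The gate's limits cut through groups of similar cells. Of the 4 genes whose absence was required, Pdgfra removed the most cells: before it 959 cells met the conditions on Pdgfrb, the 3 gate genes and Myh11, and after it 180 did. A total of 579 cells were kept out by Pdgfra alone, 60 of them with a single Pdgfra UMI. Of these 579, 567 had at least 20 Dcn UMIs and 24 had Rgs5. Abcc9 was found in 521, Vtn in 415 and Kcnj8 in 249 of them, against 90, 97 and 59 of the 104 gated cells. At the limit on the 3 genes, 9 cells just inside had 3 UMIs, 2 of them with Rgs5, and 22 cells just outside had 2 UMIs, 8 of them with Rgs5. At the limit on Myh11, 29 gated cells had 1 UMI, 18 of them with Rgs5, and 15 cells just outside had 2 UMIs, 12 of them with Rgs5. With 4 or more Myh11 UMIs, 18 of 19 otherwise matching cells had Rgs5, and 30 otherwise matching cells were kept out by 2 or more Pecam1 UMIs, 22 of them with Rgs5.

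Genes that stood highest in the gated cells relative to fibroblast, smooth muscle, endothelial and epithelial sums were listed by the ratio of the lowest gated CPM to the highest CPM elsewhere, among genes with at least 100 CPM in every gated sum. After Vtn and Abcc9, which the rule used, came Ctsc (1.65 times), Ifitm1 (1.49 times), Rgs16 (1.43 times) and Osmr (1.21 times). Only 12 of 1023 genes had a ratio above 1. Osmr, the oncostatin M receptor, had 4121, 1134, 1355 and 1458 CPM, and Rgs16, another regulator of G-protein signalling, had 1758, 179, 1297 and 627 CPM, lowest in WT 2. Ifitm1, an interferon-induced membrane protein, had 1091, 358, 1573 and 900 CPM.

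When the list was repeated over the 58 cells with Rgs5 in WT 1, Z/Z 1 and Z/Z 2, a choice made after the data were seen, 92 of 1258 genes had a ratio above 1. The lowest gated CPM was then taken without WT 2, and the part of this in the rise was not tested. Ednrb, the endothelin B receptor, led those the rule did not use, with 1600, 1618 and 1978 CPM and a ratio of 7.99. In the gated cells without Rgs5 it had 0, 0, 167 and 90.4 CPM, and in smooth muscle 85.5 to 162 CPM. Kcnq5, a voltage-gated potassium channel, followed with 1008, 1417 and 1612 CPM and a ratio of 6.49, and Rgs16 with 2477, 1776 and 751 CPM and a ratio of 6.01. Cpm, Pla2r1, Tnfrsf21, Art3 and Trpc6, a cation channel of vascular cells, were also among the first 15, at ratios of 2.48 to 5.31. In WT 1 these values rest on 6 cells: Ednrb had 73 UMIs there, 37 of them from 1 cell, and Kcnq5 had 46, 35 of them from 1 cell.

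The transcripts that most separated the kinds in the other direction were Nav3, Col15a1, Apod, C3, Dpt, Dcn, Lum, Clec3b, Fbln1, Il33, Apoe and Thsd7a. C3, the complement component, had at least 1326 CPM in every sum without Rgs5 and at most 132 CPM with it. Apoe, an apolipoprotein, had 6822, 6027, 3671 and 6210 CPM without Rgs5 and 679, 529 and 238 CPM with it. On the Rgs5 side stood Pparg, Fabp4 and Esam, an adhesion molecule of mural and endothelial cells. Fabp4, a fatty acid binding protein, had 373, 1423 and 1575 CPM with Rgs5 and 0, 0, 23.2 and 0 CPM without. The lists are ordered by values of the cells that were divided, and they carry no test.

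By role, the 28 listed receptors and channels of vascular tone, Rgs5 among them, summed to 16724, 16699 and 20003 CPM in the cells with Rgs5 and to 1767, 2745, 4468 and 4130 CPM in those without. Smooth muscle had 15181, 21678, 11530 and 10481 CPM. Rgs5 divided the cells, and its own UMIs are part of the first sums. Prkg1, the cGMP-dependent kinase, had 3178, 3971 and 6338 CPM in them and 393, 59.7, 1567 and 1296 CPM in the cells without Rgs5. Among ligands for thymocytes and epithelium, the higher values lay in the cells without Rgs5. Il33, an alarmin cytokine, had 4417, 239, 1446 and 1990 CPM in those cells and 0, 30.4 and 36.6 CPM in cells with Rgs5, and Ptn, the growth factor pleiotrophin, had 3632, 6743, 2725 and 543 CPM against 0, 292 and 183 CPM. Ccl19, a chemokine that attracts CCR7-bearing thymocytes, showed no such order, with 98.2, 835, 459 and 1025 CPM without Rgs5 and 1469, 201 and 183 CPM with it. S1pr3, a receptor for the sphingosine-1-phosphate that guides thymocyte egress, had 482, 268 and 256 CPM with Rgs5 and 245, 119, 199 and 211 CPM without. Heat shock and immediate early transcripts were abundant in both: Hspa1a, an inducible heat shock protein, had 2318, 4834, 4598 and 1174 CPM over all gated cells, and WT 2 and Z/Z 1 were above the other libraries.

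The first comparison between genotypes was the share of gated cells. In WT 1 they made up 0.527% of cells within the limits (8 of 1517, exact Clopper-Pearson interval 0.228% to 1.04%), and WT 2 gave 0.422% (2 of 474, 0.0511% to 1.52%). The share was 1.60% for Z/Z 1 (74 of 4636, 1.26% to 2.00%) and 0.553% for Z/Z 2 (20 of 3618, 0.338% to 0.852%). Both Z/Z libraries were above both WT libraries, but Z/Z 2 was close to WT 1. The mean was 1.07% ± 0.738 (SD, n = 2) in Z/Z and 0.475% ± 0.0745 (SD, n = 2) in WT, a difference of 0.600 percentage points (two-sided exact permutation p = 0.333, the smallest p that 2 against 2 libraries can give). Without Z/Z 1 the difference fell to 0.0781 points. The groups overlapped, with p = 0.667 in the same exact permutation test, when barcodes called in another library were left out (0.641% in WT 2, 0.565% in Z/Z 2) and when up to 1 UMI of each excluded gene was allowed (1.90% and 1.41%). With the gate applied to cells thinned to 2000 UMIs the ratio of the means went from 2.26 to 6.31 (p = 0.333, same exact permutation test). It then rested on 2 and 1 WT cells against 83 and 19 Z/Z cells. Thinning can also remove the UMIs of excluded genes, and in Z/Z 1 more cells passed than the 74 before. Counted only over cells with Rgs5, WT 1 had a share of 0.396%, and Z/Z 1 and Z/Z 2 had 0.820% and 0.387%. WT 2 had 0 of 474 cells, which allows a share of up to 0.633% as 3 counts of the total (exact upper limit 0.775%), and the groups overlapped (p = 0.667, same exact permutation test). In a share of sorted cells, more gated cells and fewer other cells cannot be told apart.

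**Figure D3:**
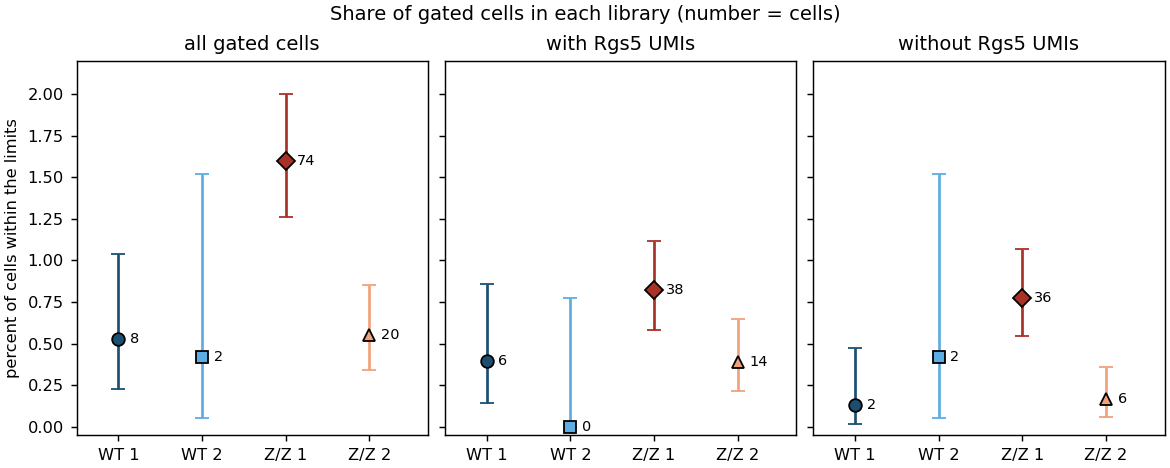
Points give the percent of cells within the limits that passed the gate in each library, for all gated cells, those with Rgs5 UMIs and those without, with exact 95% intervals for counting error and the number of cells beside each point. Z/Z 1 stands above the other 3 libraries in the first panel, and the intervals of WT 1, WT 2 and Z/Z 2 overlap in every panel.

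The comparison of expression between Z/Z and WT gated cells was made on the summed UMIs with edgeR's quasi-likelihood test and Benjamini-Hochberg adjustment, over 1625 genes that passed a filter on low counts. This filter works on CPM, so a gene reaches its limit with fewer UMIs in the small WT sums than in the larger Z/Z sums. A gene can pass through the sums of a single genotype. Fhit passed with 22 and 4 UMIs in the WT sums, at 333 and 239 CPM, and had 55.2 and 57.0 CPM in Z/Z. Prr16, with 133 and 10 UMIs in the Z/Z sums, did not pass. Leaving out the 4 tested genes that the rule used, no gene passed an adjusted p of 0.05 in either direction (0% of 1621 genes higher and 0% lower), while 79 genes had an unadjusted p under 0.05 (4.87%). DESeq2 also called 0 genes, with 39 at an unadjusted p under 0.05. With 8 and 2 WT cells, a gene that did not pass is not shown to be equal in the genotypes. Both Z/Z sums lay above both WT sums in 270 genes (16.7%) and below both in 297 (18.3%).

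The call of 0 genes depended on both WT libraries being present. Without WT 1, 28 genes were higher and 10 lower in Z/Z, and the called genes included Rgs5, Ednrb, Kcnq5, Prkg1, Steap4 and Apod, with the 2 cells of WT 2 standing alone for the group. Without WT 2, 10 genes were higher and 33 lower. Restricted to cells with Rgs5, which leaves 6 cells of WT 1 as the only WT sum, 23 were higher and 30 lower. In each of these fits the lone WT sum was assumed to vary like the other group. Cells with Rgs5 were 6 of 8 and 0 of 2 in the WT sums (exact Clopper-Pearson intervals 34.9% to 96.8% and 0% to 84.2%) and 51.4% and 70.0% in the Z/Z sums (39.4% to 63.1% and 45.7% to 88.1%). The intervals overlap, and the part of this share in the calls was not tested.

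The 5 genes with the lowest p in each direction are given with their values, none of which passed the adjustment. Gm12840, a long non-coding RNA gene on chromosome 4, had 30.3, 0, 697 and 536 CPM, a log2 difference of 4.81 ± 0.85 (SE; edgeR adjusted p = 0.902). The same RNA had 199, 224, 1121 and 1223 CPM in fibroblasts. Mgp, matrix Gla protein, an inhibitor of vascular calcification, had 1136, 835, 3056 and 3999 CPM, a log2 difference of 1.94 ± 0.50 (edgeR adjusted p = 0.913), and its level in the Z/Z sums was alike with and without Rgs5, at 3010 and 3938 against 3092 and 4100 CPM. Igfbp5, an insulin-like growth factor binding protein, had 0 UMIs in both WT sums and 52 and 34 UMIs in the Z/Z sums (137 and 387 CPM; edgeR adjusted p = 0.913). The mean of the Z/Z sums, 262 CPM, was 7.23 times the 36.3 CPM that 3 UMIs over both WT sums would give. This limit covers counting error only and pools the WT libraries. A UMI of Igfbp5 was found in 20 of 74 and 6 of 20 Z/Z cells. Rrad, a small GTPase that restrains calcium channels, had 75.8, 59.7, 366 and 604 CPM, and Pde4d, a cAMP phosphodiesterase, had 90.9, 59.7, 321 and 706 CPM. In Z/Z 1, 69.7% of the Pde4d UMIs came from 1 cell. Gm12840, Igfbp5, Rrad and Pde4d passed the filter on low counts only through the Z/Z sums. A high Z/Z level was thus a condition of their being tested.

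The genes with the lowest p among those with lower values in Z/Z were Fhit, Ndrg1, Yap1, Col6a6 and Csmd1. Yap1, the transcriptional coactivator of the Hippo pathway, had 591, 656, 134 and 148 CPM, a log2 difference of -1.99 ± 0.51 (SE; edgeR adjusted p = 0.913). It was found in 7 of 8 and 2 of 2 WT cells and in 28 of 74 and 11 of 20 Z/Z cells. These counts of cells are not at equal depth, since the WT cells were the deeper ones. In fibroblasts Yap1 was level across the libraries, at 152, 152, 139 and 149 CPM. Ndrg1, a stress-responsive gene, had 455, 477, 76.3 and 125 CPM (log2 -2.14 ± 0.53). Csmd1, a complement-regulating membrane protein, had 12970, 9190, 3722 and 3601 CPM (log2 -1.47 ± 0.40), and it was lower in Z/Z fibroblasts too, at 3000, 2381, 354 and 296 CPM. Fhit and Col6a6 rested on few cells: 20 of 22 Fhit UMIs of WT 1 came from 1 cell. Col6a6, a collagen VI chain, had 318, 298, 78.9 and 45.6 CPM (log2 -2.02 ± 0.54), and its difference turned to 0.01 when the gate allowed up to 1 UMI of each excluded gene. Fhit, Ndrg1 and Col6a6 passed the filter on low counts only through the WT sums, so a high WT level was a condition of their being tested.

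**Figure D4:**
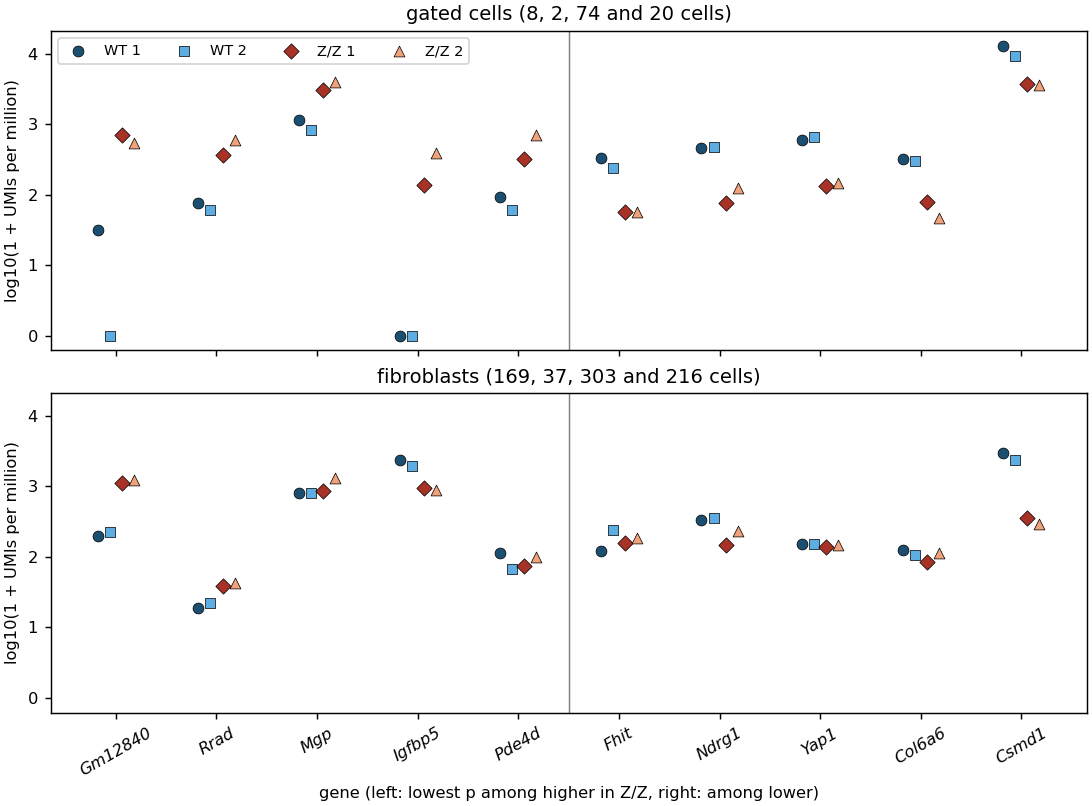
Each gene has 4 points, 1 per library, as log10 of 1 plus CPM, in the gated cells above and in fibroblasts of the same libraries below, with the 5 genes of lowest p among those higher in Z/Z on the left and lower on the right. In the upper panel the WT and Z/Z points do not overlap for any of the 10 genes, as in 16.7% and 18.3% of all genes in the 2 directions, and no gene passed the adjusted test. Gm12840, Rrad, Igfbp5, Pde4d, Fhit, Ndrg1 and Col6a6 passed the filter on low counts through a single genotype, so their separation is in part set by that filter.

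Gene lists of the pathways of mural cells were read by their counts beside all genes tested, whose median log2 difference was 0.05. No member of any of 24 lists passed the test. The 10 tested pericyte identity genes that the rule did not use had a median of 1.13, with 5 (50.0%) whose Z/Z sums lay above both WT sums, against 16.7% of all genes, and 1 below. The summed level of the list was 6667, 2626, 6662 and 9309 CPM, so that WT 1 and Z/Z 1 were alike and WT 2, with no Rgs5 cell, stood low. Steap4 was among these 5, at 303, 119, 697 and 1174 CPM. The 13 tested genes of mitochondrial respiration and glycolysis had a median of 0.59, and in 7 of them (53.8%) both Z/Z sums were above both WT sums, against 16.7% of all genes. The list's summed level was also higher in both Z/Z libraries outside the gated cells, at 6380, 6310, 7885 and 8237 CPM in smooth muscle, 3097, 2564, 3296 and 3645 CPM in fibroblasts and 2624, 1528, 4134 and 5020 CPM in empty droplets. The 15 tested receptors and channels of vascular tone had a median of 0.41, the 12 genes of contraction 0.33 and the 12 genes of basement membrane and integrins 0.23. The 7 tested genes of TGF-beta and BMP signalling had a median of -0.45, and the 5 of thymocyte and epithelial growth cues -1.05, where Ptn had 1121, 6743, 1673 and 319 CPM, with all 74 UMIs of WT 1 and 101 of the 113 UMIs of WT 2 in 1 cell each. Few members of other lists could be tested: 4 of 17 Notch pathway genes, 3 of 22 of PDGF, angiopoietin and VEGF signalling and 2 of 11 of sphingosine-1-phosphate metabolism. The summed fibroblast markers, given above, were highest in WT 2, and their part in these medians was not tested.

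Whether the genotype difference was the same in gated cells and in fibroblasts was tested as an interaction in edgeR with a term for each library. Of 7557 genes, 7 passed with a more positive difference in the gated cells (0.0926%) and 0 with a more negative one (0%), and 395 had an unadjusted p under 0.05. The median log2 value over all these genes was 0.38, so the fitted values leaned to the positive side. The 7 genes were Rgs6, Postn, Inpp4b, Igfbp5, Prr16, Swt1 and Chn1. For 3 of them, Rgs6, Postn and Inpp4b, the difference lay mostly in fibroblasts: Postn, the matrix protein periostin, had 241, 164, 9.62 and 16.1 CPM in fibroblasts and 1758, 119, 1120 and 855 CPM in gated cells, a difference of log2 4.58 ± 0.79 (SE; edgeR adjusted p = 2.65e-05). Rgs6, a regulator of G-protein signalling, had 94.7, 269, 8.29 and 23.7 CPM in fibroblasts and 273, 0, 266 and 638 CPM in gated cells. Rgs6 and Inpp4b had at least 395 and 351 CPM in each sum of gated cells with Rgs5 and at most 30.1 CPM without it. WT 2 had no gated cell with Rgs5, and the part of this in the 2 calls was not tested. Igfbp5 went opposite ways, with 2363, 1960, 963 and 892 CPM in fibroblasts and no UMI in WT gated cells, so that its fitted log2 of 12.29 is not a bound. Prr16, Swt1 and Chn1 each had at most 2 UMIs in a WT gated sum, and 63.5% of the Swt1 UMIs of Z/Z 1 came from 1 cell. Without Z/Z 2 no gene passed, without Z/Z 1 only Igfbp5 did, and 50 and 29 genes passed without WT 1 and without WT 2. The same test against smooth muscle was not made, since WT 2 held 2 smooth muscle cells.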

How the data were processed

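Droplet-based 3′ single-cell RNA-seq counts of 4 libraries were used. The deposited values are whole-number UMI counts, not normalized, which the authors made with Cell Ranger (7.01 in the submitters' processing notes, build GRCm38.p5, mm10). The gate was applied to the deposited counts of called barcodes, 111 ribosomal protein and haemoglobin genes, which the study also removed, were dropped, and UMIs of the gated cells were summed per library. Sums were compared with edgeR 4.0.16 (TMM factors, filterByExpr, quasi-likelihood F test, Benjamini-Hochberg adjustment), with DESeq2 1.42.0 as an alternative, in R 4.3.3. Doublets were scored with Scrublet in scanpy 1.11.5 and kept, and leaving out the 3.9% with the highest scores was an alternative. Empty droplets were uncalled barcodes with at most 100 UMIs. The libraries are separate samples in the labels, but nothing says that they came from separate animals, and p-values measure the spread between them. Whether the kit was the v2 or the v3 version is given differently in the sources. The members and lists were chosen with earlier results of these data known.

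Named genes were the 10 higher and 10 lower genes of largest change past the threshold with at least 50 CPM and 20 UMIs, list members that passed, the 3 highest members of each list, and, where fewer than 5 passed in a direction, the 5 with the lowest p. The fits were tested on simulated data.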

Additional observations from a re-analysis of the deposited data

Results flagged for a closer look

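The genotype difference of 7 genes differed between the gated cells and fibroblasts by the interaction test, always with a more positive value in the gated cells. The median log2 value over all 7557 genes in this fit was 0.38, also positive. The differences (log2, gated cells minus fibroblasts) were 4.58 for Rgs6, 4.58 for Postn, 4.13 for Inpp4b, 12.29 for Igfbp5, 4.5 for Prr16, 5.06 for Swt1 and 4.55 for Chn1, with edgeR adjusted p-values from 1.49e-05 to 0.0374. WT gated sums held 18 and 0 UMIs of Rgs6, 116 and 2 of Postn, 16 and 0 of Inpp4b, 0 and 0 of Igfbp5, 1 and 1 of Prr16, 0 and 1 of Swt1 and 2 and 0 of Chn1. Of the 116 Postn UMIs of WT 1, 80.2% came from 1 cell.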

How the results depend on the processing

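The counts of genes that passed in the gated cells, 0 higher and 0 lower in Z/Z, moved to 1 and 1 with no filter on low counts, to 1 and 0 with cells thinned to 2000 UMIs, and to 23 and 30 with cells that had at least 1 Rgs5 UMI, an alternative chosen after the data were seen. Leaving out 1 library gave 0 to 28 higher and 0 to 33 lower genes. The replicate number as a block gave 0 and 0. Same-numbered libraries did not deviate together (correlation -0.146 over 1625 genes), the numbers are only shared names, and a block that crosses the pairing, added after the data were seen, also gave 0 and 0. The 7 interaction calls became 0 without the library term, 3 with the stricter gate, 19 with cells that had Rgs5, and 0 to 50 when 1 library was left out. Genes with a ratio above 1 over other cell types went from 12 of 1023 to 92 of 1258 in cells with Rgs5, where the lowest sum was taken without WT 2. The number of lists with a median above that of all genes, 12 in the main result, was 7 with no filter. Col6a6 reversed, to 0.01, when up to 1 UMI of each excluded gene was allowed. The mean share of gated cells was higher in Z/Z under each alternative run. The difference was 0.0781 to 1.12 percentage points when 1 library was left out and 2.67 points as a share of cells with Pdgfrb. The libraries of the groups overlapped under 2 gates or filters named above. They also overlapped for cells with Rgs5 and for cells without it (0.422% in WT 2, 0.166% in Z/Z 2). In all, 61 results of main comparisons were the same and 18 moved, and the cause was not tested. A share result counted as the same wherever the mean stayed higher in Z/Z. Changes in its size and overlaps of the libraries did not count as a move. The WT sums rest on 8 and 2 cells, and depth limits the gene tests to 1621 of 14312 genes with a UMI.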
